A study of Homo sapiens with 8 samples.

Results

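The data described here are the H3K27ac regions of human chromosome 5 in MP2_HDAC1_OE and MP2_NTC cells. Overlapping peaks from the lists of the lines, joined at an overlap of 1 bp or more, made up 18678 regions, and the 1113 on chromosome 5 are described. They were chosen by the measured positions of the peaks, and the division into unique and shared regions used which list held a peak. Both lines derive from MIA PaCa-2, an established human pancreatic carcinoma line. MP2_HDAC1_OE carries the lentiSAMv2 CRISPR activation vector with a guide against *HDAC1*, MP2_NTC carries the same vector with a non-targeting guide, and both carry the lentiMPHv2 helper plasmid. Each line had 2 H3K27ac samples and 2 control samples made without an antibody. The authors deposited 1 list of reproducible peaks per line, so each list is a pool of both samples of 1 stable line. No replicate values remain, the sequencing depth is unknown, no test between the lines was possible, and the 95% Wilson intervals given here cover counting error alone. A difference between the lists may be a difference between the lines or between their libraries, and the lists cannot tell these apart.

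H3K27ac, the acetylation of lysine 27 of histone H3, marks nucleosomes at active promoters and enhancers. It is written by acetyltransferases such as p300 and CBP and removed by histone deacetylases, of which *HDAC1* is a nuclear member that works in corepressor complexes. Chromosome 5 carries gene-dense parts such as the cytokine and protocadherin clusters of its long arm, beside wide gene-poor stretches where acetylated regions can lie far from any protein-coding gene.

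The promoters below are shown because a peak or region at the start of these genes differed in presence or rank between the lists. Each is the RefSeq sequence (GRCh38.p14) from 250 bases before to 50 bases after a start of the gene, written 5′ to 3′ on the gene's strand, with matches to 7 motifs in capitals. The motifs, searched on both strands, were TGANTCA (AP-1, in 7.71% of all promoters in the RefSeq table used), TGACGTCA (CRE, 1.85%), CACGTG (E-box, 7.26%), GGGCGG (GC box, in 15786 of 35116), CCAAT (34.6%), CCGGAAG (ETS, 10.3%) and TATAAA (11.5%). *CCDC125* and *MACROH2A1* had peaks at their starts only in MP2_HDAC1_OE, and *P4HA2* ranked higher there.
CCDC125 (chr5:69332752-69333051, minus strand): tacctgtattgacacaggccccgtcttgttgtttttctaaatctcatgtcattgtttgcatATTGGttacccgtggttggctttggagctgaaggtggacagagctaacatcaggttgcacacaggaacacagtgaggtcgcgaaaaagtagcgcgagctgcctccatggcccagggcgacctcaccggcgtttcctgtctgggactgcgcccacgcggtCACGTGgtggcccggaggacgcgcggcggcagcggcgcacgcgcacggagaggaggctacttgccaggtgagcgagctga
MACROH2A1 (chr5:135399182-135399481, minus strand): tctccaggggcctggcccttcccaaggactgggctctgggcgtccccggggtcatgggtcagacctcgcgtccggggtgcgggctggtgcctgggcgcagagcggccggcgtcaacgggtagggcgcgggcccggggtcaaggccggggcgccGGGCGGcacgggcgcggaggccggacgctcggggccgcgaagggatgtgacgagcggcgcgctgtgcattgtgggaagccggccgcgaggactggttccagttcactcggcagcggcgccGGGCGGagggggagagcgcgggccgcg
P4HA2 (chr5:132227042-132227341, minus strand): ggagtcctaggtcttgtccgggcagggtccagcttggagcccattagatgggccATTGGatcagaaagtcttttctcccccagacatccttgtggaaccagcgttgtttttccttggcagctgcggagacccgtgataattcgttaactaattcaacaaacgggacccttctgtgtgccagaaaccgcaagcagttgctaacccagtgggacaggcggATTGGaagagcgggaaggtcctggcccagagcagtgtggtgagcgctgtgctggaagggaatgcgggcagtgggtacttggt
*PIK3R1* and *LYRM7* had peaks at their starts only in MP2_NTC, and *SFXN1*, *BDP1* and *LMNB1* have shared regions that ranked higher there.
PIK3R1 (chr5:68215506-68215805, plus strand): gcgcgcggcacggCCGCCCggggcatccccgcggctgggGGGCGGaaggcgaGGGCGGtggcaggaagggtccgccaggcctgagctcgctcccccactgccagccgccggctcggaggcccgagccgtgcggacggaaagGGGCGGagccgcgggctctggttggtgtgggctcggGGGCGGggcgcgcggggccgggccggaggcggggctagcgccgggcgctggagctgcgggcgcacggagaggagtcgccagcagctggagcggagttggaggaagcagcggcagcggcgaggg
LYRM7 (chr5:131170694-131170993, plus strand): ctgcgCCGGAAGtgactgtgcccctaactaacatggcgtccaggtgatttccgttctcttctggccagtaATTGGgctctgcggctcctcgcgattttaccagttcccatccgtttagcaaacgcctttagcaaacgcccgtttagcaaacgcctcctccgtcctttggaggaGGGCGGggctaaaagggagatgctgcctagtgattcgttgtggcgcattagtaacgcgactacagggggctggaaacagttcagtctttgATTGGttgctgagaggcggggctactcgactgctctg
SFXN1 (chr5:175478310-175478609, plus strand): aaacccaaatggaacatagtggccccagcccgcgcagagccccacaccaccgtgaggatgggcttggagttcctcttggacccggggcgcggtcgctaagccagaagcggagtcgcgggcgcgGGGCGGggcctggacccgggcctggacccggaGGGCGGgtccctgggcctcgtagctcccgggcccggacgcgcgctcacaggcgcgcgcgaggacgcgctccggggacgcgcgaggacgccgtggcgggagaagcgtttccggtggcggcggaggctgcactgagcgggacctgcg
BDP1 (chr5:71455401-71455700, plus strand): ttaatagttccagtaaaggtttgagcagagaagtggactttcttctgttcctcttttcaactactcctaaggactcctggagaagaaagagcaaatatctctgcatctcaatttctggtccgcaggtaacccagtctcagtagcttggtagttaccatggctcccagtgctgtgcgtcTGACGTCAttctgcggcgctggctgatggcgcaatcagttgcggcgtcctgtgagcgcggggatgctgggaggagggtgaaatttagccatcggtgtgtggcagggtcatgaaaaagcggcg
LMNB1 (chr5:126776373-126776672, plus strand): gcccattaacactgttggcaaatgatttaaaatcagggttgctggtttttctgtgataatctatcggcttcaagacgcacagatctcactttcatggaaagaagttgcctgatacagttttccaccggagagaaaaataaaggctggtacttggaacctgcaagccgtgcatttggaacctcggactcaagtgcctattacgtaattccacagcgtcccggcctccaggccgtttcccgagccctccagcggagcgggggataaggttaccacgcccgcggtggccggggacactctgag
The *PIK3R1* window held 5 GC boxes and *SFXN1* and *MACROH2A1* held 2 each. *BDP1* held the only CRE of these windows, at the letters TGACGTCA, and *LMNB1* held none of the 7 motifs. A match is a run of letters and was not tested as a binding site.

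Across all chromosomes, the MP2_HDAC1_OE list held 25045 peaks, 1579 of them on chromosome 5, and the MP2_NTC list held 22569 peaks, 1491 of them on chromosome 5. Each peak carries the authors' signal value, and a peak is described here by its percentile, the share of peaks of its own list with a lower signal. At *HDAC1* itself, on chromosome 1, the strongest peak stood at percentile 93.9 in MP2_HDAC1_OE and 45.2 in MP2_NTC. Of the markers of cell type, the epithelial gene *KRT18* and the mesenchymal genes *VIM* and *ZEB1* had peaks in both lists, *KRT8* in MP2_HDAC1_OE alone, and *EPCAM*, *CDH1* and *CDH2* in neither. No peak was listed at the immune genes *PTPRC* and *CD3E*, the endothelial genes *PECAM1* and *VWF* or the fibroblast genes *COL1A1* and *DCN*.

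Chromosome 5 had the smallest share of regions unique to MP2_HDAC1_OE of the 23 chromosomes in the lists, 275 regions or 24.7% (95% interval 22.3 to 27.3%), where 28.6% of the regions of all chromosomes were unique to this line. Regions unique to MP2_NTC numbered 243, or 21.8% (19.5 to 24.4%), where the share over all chromosomes was 20.7%. The 595 shared regions made up 53.5% (50.5 to 56.4%) of chromosome 5 and 50.7% of all regions. The interval for MP2_HDAC1_OE lay below the genome-wide share, and that for MP2_NTC held it. Chromosome 14, with 25.5% unique to MP2_HDAC1_OE, came next in this order, and its value lay within the interval of chromosome 5.

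**Figure D1:**
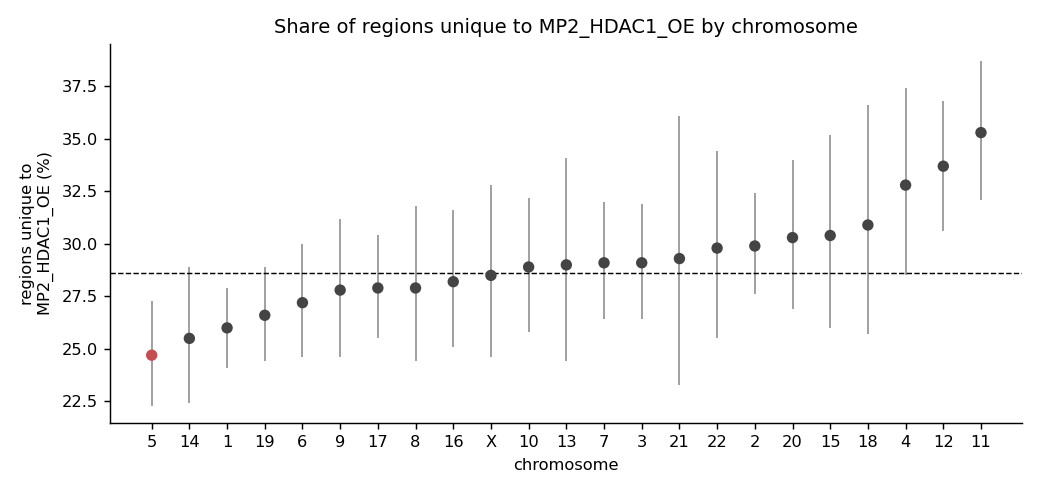
Share of merged H3K27ac regions unique to MP2_HDAC1_OE (y axis, %) on each chromosome (x axis, in order of the share), with 95% Wilson intervals as bars, chromosome 5 in red and the share over all chromosomes (28.6%) as a dashed line. Chromosome 5 has the smallest share, 24.7%, and its interval overlaps those of several neighbours in the order.

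Regions of chromosome 5 lay between genes more often than those of other chromosomes, and those unique to a line were less often at gene starts. A start was any RefSeq start of a protein-coding gene, with a window from 2 kb outside to 1 kb inside the gene. Starts were listed for 789 of the 903 protein-coding genes of chromosome 5. A region at the start of any other gene could be counted as inside or between genes. Of the regions unique to MP2_HDAC1_OE, 21.1% (16.7 to 26.3%) met such a window on chromosome 5 and 35.2% (33.9 to 36.5%) on the other chromosomes with listed starts. Of those unique to MP2_NTC, 25.9% (20.8 to 31.8%) met one, and 42.5% (40.9 to 44.1%) elsewhere. Between genes lay 51.6% (45.7 to 57.5%) of the regions unique to MP2_HDAC1_OE on chromosome 5, and 30.6% (29.3 to 31.9%) on the other chromosomes. Of the shared regions, 61.3% were at a gene start on chromosome 5 and 64.3% elsewhere, and 27.6% (24.1 to 31.3%) lay between genes on chromosome 5 and 18.4% (17.6 to 19.2%) elsewhere. The larger share between genes was thus seen in unique and shared regions. Of the 399 regions of the chromosome between genes, 187 lay in 3 gene-poor stretches described below. Outside these stretches, 485 regions lay at gene starts, 228 in gene bodies and 212 between genes. The other chromosomes with listed starts had 8740, 4347 and 3927. The stretches were picked after their counts were seen, and the other chromosomes kept their own large stretches. These counts therefore cannot say what the larger share between genes rested on. With both ends of each gene in the window, 45.2% of the regions of chromosome 5 and 55.1% of all regions were at a gene end. Unique regions were also weaker than shared regions. Their median percentile was 39.1 in MP2_HDAC1_OE and 37.9 in MP2_NTC, where the strongest peaks of shared regions had medians of 81.5 and 80.4. The typical unique region was 820 bp wide and held 1 peak, and the typical shared region was 1073 bp wide with 2 peaks of each line.

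Many unique regions had a peak of the other line close by. Within 1 kb of 81 regions unique to MP2_HDAC1_OE (29.5%, 24.4 to 35.1%) and of 82 regions unique to MP2_NTC (33.7%, 28.1 to 39.9%) lay a peak of the other list. At the limit of the rule, 18 unique regions were separated from the other line by at most 50 bp, the closest by 9 bp, and 1 shared region overlapped by at most 50 bp, with 4 bp. The distance to the other line is therefore given for each unique region named here.

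Among the 10 strongest regions unique to MP2_HDAC1_OE, 7 lay at gene starts, 2 between genes and 1 inside a gene. The strongest, chr5:140401814-140402471 at the start of the ankyrin repeat gene *ANKHD1*, had a signal of 101 (percentile 96.4), with an MP2_NTC peak 316 bp away. *ZNF131*, which codes for a zinc finger transcription factor, followed at percentile 96.2 with a peak of the other line at 141 bp. The regions at *ZNF300* (percentile 93.6, 10 bp), *WDR55* (93.3, 74 bp), *TRIO* (87.9, 117 bp) and *ZNF346* (87.5, 424 bp) were likewise flanked by MP2_NTC peaks. Beyond 1 kb from any MP2_NTC peak were 4 of the 10. These were the start of *CCDC125* (chr5:69332821-69333214, percentile 94.4), 35473 bp from the nearest, a region inside *F12*, the gene of coagulation factor XII (percentile 93.0, 20357 bp), and regions between genes at chr5:103919558-103920035 (93.6, 1553 bp) and chr5:58114512-58115282 (90.9, 1644 bp).

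The 10 strongest regions unique to MP2_NTC were at the start of *LOC112267855* (percentile 94.4), inside *LARS1*, a leucyl-tRNA synthetase (92.4), at the start of the splicing regulator *HNRNPH1* (92.2), near *SPRY4* (91.9) and *JADE2* (91.8), at *CAST*, which codes for the calpain inhibitor calpastatin (91.3), near *ACTBL2* (89.9), and at *PIK3R1* (88.9), the shared start of *BRD9* and *TRIP13* (87.7) and *LYRM7* (87.1). The *LARS1* region lay 86 bp from an end of that gene. The region at *PIK3R1*, which codes for the regulatory subunit of PI3K, stood farthest from the other line. It spanned chr5:68215227-68215638 with a signal of 87.6, and the nearest MP2_HDAC1_OE peak was 878469 bp away. The *CAST* region was 39992 bp, the *LOC112267855* region 28500 bp, the *JADE2* region 7565 bp, the *LYRM7* region 4758 bp and the *ACTBL2* region 1703 bp from the nearest MP2_HDAC1_OE peak. The other 4 had one within 1 kb, from 15 bp at *BRD9* and *TRIP13* to 534 bp near *SPRY4*.

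Gene starts gave a second view, in which peaks of both lists within a window count together even across a gap. A peak outside the window is not counted, so the edge of the window matters instead, as at *MZB1* below. Of 789 protein-coding genes of chromosome 5 with a listed start, 408 (51.7%) had a peak at a start in at least 1 list, close to the 51.3% of the other chromosomes. Peaks of both lists were at 351 of them (86.0%, 82.3 to 89.1%), where the other chromosomes had 76.3% (75.4 to 77.3%). Peaks of MP2_HDAC1_OE alone were at 28 starts (6.86%, 4.79 to 9.74%) and of MP2_NTC alone at 29 (7.11%, 4.99 to 10.0%), where 12.4% and 10.8% of all starts with a peak had one list alone. Both shares of chromosome 5 had intervals below these genome-wide values.

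The 28 genes with MP2_HDAC1_OE alone were led by *CCDC125* and then, on a peak they share, *DROSHA*, which cuts primary microRNAs, and *C5orf22* (percentile 84.1). *MACROH2A1*, which codes for the histone variant macroH2A, stood at 83.4 with 2 peaks, and *CERT1*, a ceramide carrier, and *POLK*, a translesion DNA polymerase, shared a start at 83.0. Lower in the list were *HBEGF*, a ligand of the EGF receptor family (41.8), the oncostatin M receptor gene *OSMR* (25.8), the growth factor receptor *FGFR4* (25.01) and *MYO10*, a myosin of filopodia (12.4). The 29 genes with MP2_NTC alone were led by *LOC112267855*, *CAST*, *PIK3R1*, *LYRM7*, the splicing factor *SLU7* (85.5) and *ALDH7A1* (84.2), an aldehyde dehydrogenase. *EFNA5*, an ephrin ligand (24.8), the protease-activated receptor *F2RL1* (25.7), the monocyte marker *CD14* (24.4) and *TCF7*, a transcription factor of Wnt signalling (5.4), had weak peaks. A weak peak on 1 list lies close to the lists' lower limit, and the part of that limit in these differences was not tested.

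The promoters of these genes differed from those without peaks in some of their letters. On the base of 1 start per gene, the median GC content was 65.0% for 338 promoters with peaks of both lists, 67.0% for 29 with MP2_HDAC1_OE alone, 65.3% for 31 with MP2_NTC alone and 54.7% for 391 without a peak. A GC box was in 71.3%, 75.9%, 67.7% and 42.5% of these groups. The ETS letters CCGGAAG were in 24.0% (19.7 to 28.8%) of the promoters with both lists, in 9 of 31 with MP2_NTC alone (29.0%, 16.1 to 46.6%) and in 0 of 29 with MP2_HDAC1_OE alone (0 to 11.7%), and in 2.81% of those without a peak. The AP-1 letters were in 4 of 29, 2 of 31 and 7 of 338 promoters with MP2_HDAC1_OE alone, MP2_NTC alone and both, and in 27 of 391 (6.91%) without a peak. CCAAT was in 35.5% of promoters with both lists and 35.8% of those without a peak. These are counts of letters in short windows of few genes and carry no test.

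Along the chromosome, unique regions of the lines often fell in the same bins of 5 Mb, and the balance between them varied by bin. The bin from 55 to 60 Mb held the most of each line, 48 unique to MP2_HDAC1_OE and 24 unique to MP2_NTC. The arms were split at the centromere, around which no region lay. The short arm held 178 regions, 40 unique to MP2_HDAC1_OE (22.5%, 17.0 to 29.1%), 45 unique to MP2_NTC (25.3%, 19.5 to 32.1%) and 93 shared. The long arm held 935 regions, 235 unique to MP2_HDAC1_OE (25.1%), 198 unique to MP2_NTC (21.2%) and 502 shared. Both shares of the long arm lay within the intervals of the short arm. Of 37 bins of 5 Mb, 7 held at least 3 more regions unique to MP2_NTC, 10 held at least 3 more unique to MP2_HDAC1_OE and 20 differed by fewer than 3. The 3 bins with most regions held 312 regions in all and 95 of the 275 unique to MP2_HDAC1_OE.

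**Figure D2:**
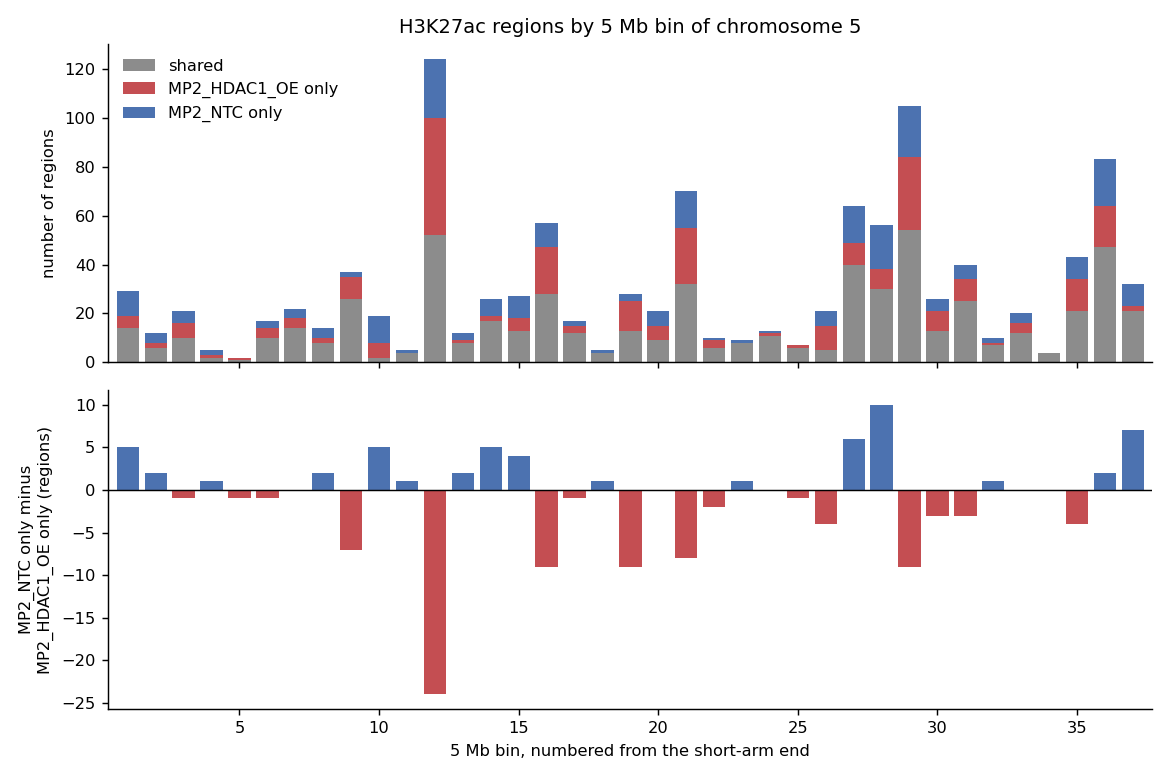
Number of H3K27ac regions in each 5 Mb bin of chromosome 5 (top, stacked by shared, MP2_HDAC1_OE only and MP2_NTC only) and the number unique to MP2_NTC minus the number unique to MP2_HDAC1_OE (bottom), with bins numbered from the short-arm end on the x axis. Bin 12 holds 124 regions and has the lowest difference, -24, and bins 27 and 28, the segment from 130 to 140 Mb, have differences of 6 and 10.

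MP2_NTC-only regions exceeded MP2_HDAC1_OE-only regions most in the bins from 135 to 140 Mb (18 and 8), from 180 Mb to the end (9 and 2) and from 130 to 135 Mb (15 and 9). In the bin at the long-arm end, the 9 regions lay at or near genes such as *CNOT6*, *MGAT1*, *TRIM7*, *TRIM41*, *TRIM52* and *RACK1*, a ribosome-associated scaffold. MP2_HDAC1_OE-only regions exceeded most in the bins from 55 to 60 Mb (48 and 24), from 75 to 80 Mb (19 and 10), from 90 to 95 Mb (12 and 3) and from 140 to 145 Mb (30 and 21). In the bin from 75 to 80 Mb, those unique to MP2_HDAC1_OE included regions at or near *GCNT4*, *CERT1* and *POLK*, *F2R*, *F2RL1*, *S100Z*, *ZBED3*, *PDE8B* and *SCAMP1*, and 4 of the 10 unique to MP2_NTC lay inside *IQGAP2*, a scaffold protein. The bin from 90 to 95 Mb had MP2_HDAC1_OE-only regions at the starts of *ARRDC3* and *NR2F1*, a nuclear receptor, and the rest between genes. The signs of the differences in single bins rest on few regions each and were not tested.

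Between 130 and 140 Mb there were 120 regions, of which 33 were unique to MP2_NTC (27.5%, 20.3 to 36.1%), 17 unique to MP2_HDAC1_OE (14.2%, 9.04 to 21.5%) and 70 shared. On the rest of the chromosome the shares were 21.1% (18.7 to 23.8%) and 26.0% (23.4 to 28.8%). The segment was chosen for this difference, so these values are a description. Its excess came from regions inside and between genes more than from listed gene starts. Of the 33 regions unique to MP2_NTC, 16 lay inside genes, 9 between genes and 8 at starts. Of the 17 unique to MP2_HDAC1_OE, 9, 3 and 5 did. *JADE2*, a chromatin protein with PHD fingers, had 6 MP2_NTC-only regions in and around it, at chr5:134503629-134504448 (percentile 91.8) and at 5 weaker places between percentiles 10.6 and 57.3, beside 1 MP2_HDAC1_OE-only region (35.8). At *JADE2* itself both lists had peaks, up to percentiles 98.2 and 89.8. *TGFBI*, an extracellular matrix protein, had 2 weak MP2_NTC-only regions in its body (12.3 and 3.7) and no peak at its start. *CTNNA1*, which codes for alpha-catenin, had 3, of which chr5:138752729-138753364 at a start was the strongest (percentile 78.5) and had an MP2_HDAC1_OE peak 144 bp away. Single regions unique to MP2_NTC lay at an end of *STING1*, the adaptor of cytosolic DNA sensing (53.4), in *HSPA4*, a heat shock protein (41.5), at *PITX1*, a homeobox gene (82.6, 922 bp from the other line) and at *LYRM7*, an assembly factor of mitochondrial complex III (87.1, 4758 bp). *STING1* had no listed start, so its region was counted as inside the gene. A region near *IL3* (35.1) was 161745 bp from any MP2_HDAC1_OE peak.

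The MP2_HDAC1_OE-only regions of the segment included the starts of *MACROH2A1* (chr5:135399302-135399672, percentile 83.4, 151424 bp from the other line), *SHROOM1* (73.3, 34911 bp) and *KIF3A*, a kinesin of intracellular transport (46.2, 27736 bp). A further one lay at *EGR1*, an immediate early transcription factor (41.4, 130 bp), whose strongest peaks stood at 90.5 in MP2_HDAC1_OE and 96.3 in MP2_NTC. *PSD2* had 3 such regions in its body, at percentiles 38.1, 66.9 and 69.9, and the nearest MP2_NTC peaks were 76174 to 118345 bp away. In counts of gene starts with peaks of a single list, the segment was nearly balanced. Of 89 protein-coding genes with a start there, 52 had peaks of both lists, 4 of MP2_HDAC1_OE alone, 3 of MP2_NTC alone and 30 no peak. *MZB1* was counted under MP2_HDAC1_OE alone because its start window met only the MP2_HDAC1_OE peak of a shared region with percentiles 59.9 in MP2_HDAC1_OE and 86.2 in MP2_NTC. The excess of MP2_NTC was thus seen in counts of unique regions and not in counts of listed starts with peaks of a single list. Of the 52 starts with both lists, most had their strongest peak at a higher percentile in MP2_NTC. Differences of 20 points or more went toward MP2_NTC at 7 starts and toward MP2_HDAC1_OE at 4. The 7 include *UQCRQ* and *GDF9*, which were scored on the same peaks.

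Shared regions of the segment shifted in both directions. The shift is the percentile of a region's strongest peak in MP2_HDAC1_OE minus that in MP2_NTC. Its median over the 70 shared regions was -2.37 points, with 24 above 0 and 46 below. Over the 525 shared regions of the rest of the chromosome it was 0.092. Shifts of 20 points or more toward MP2_NTC made up 14.3% of the 70, close to the 14.1% of the rest of the chromosome. Toward MP2_HDAC1_OE they made up 10.0%, where the rest had 19.0%. Toward MP2_NTC, by 20 points or more, went 10 regions, at *CDC25C* (22.9 in MP2_HDAC1_OE and 73.6 in MP2_NTC), *PITX1* (34.3 and 81.2), *RAPGEF6*, an exchange factor for Rap GTPases (51.1 and 95.5), *VDAC1*, the outer mitochondrial channel (51.8 and 96.1), *IRF1*, an interferon-responsive transcription factor (37.72 and 81.1), *SPATA24*, *FNIP1*, *MZB1*, *UQCRQ* and *SEPTIN8*. Toward MP2_HDAC1_OE went 7, at *CXXC5* (81.9 and 22.9), *P4HA2*, which hydroxylates collagen prolines (95.01 and 46.4), *JADE2*, *DDX46*, *AFF4*, *CDC42SE2* and *CDKN2AIPNL*. For *CDC25C*, a phosphatase of mitotic entry, the strongest peaks at its starts were at 98.7 and 99.6, so the shift was that of a weaker region beside it. The peaks within the start windows also differed by under 20 points at *FNIP1* (87.4 in MP2_HDAC1_OE and 99.2 in MP2_NTC), *SPATA24* (87.8 and 96.1) and *AFF4* (96.7 and 77.2). At *JADE2* they stood at 98.2 and 89.8, and the shifted region lay between genes, 11.3 kb away. At *CXXC5* they went the other way, with 8.96 in MP2_HDAC1_OE and 22.9 in MP2_NTC, since the strongest MP2_HDAC1_OE peak of the region lay outside the start window.

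Over the whole chromosome the ranks of shared regions were nearly balanced. The median shift was -0.258 points (interquartile range -9.44 to 13.2, range -84.6 to 70.9), and chromosome 5 was the only chromosome whose median was below 0, where all chromosomes together had 1.51. The lists differ in length, which enters the ranks. With equal numbers of peaks the median was -0.95 on chromosome 5 and -0.022 over all chromosomes, so a median below 0 then did not set chromosome 5 apart from the whole. The binomial interval of the median, -0.886 to 0.484, held 0. Toward MP2_HDAC1_OE, 107 regions (18.0%) shifted by 20 points or more, where 19.7% of all shared regions did, and toward MP2_NTC 84 (14.1%), where 14.7% did. The median was -0.886 on the short arm and -0.123 on the long arm, and 21 bins had a median below 0 and 16 above.

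**Figure D3:**
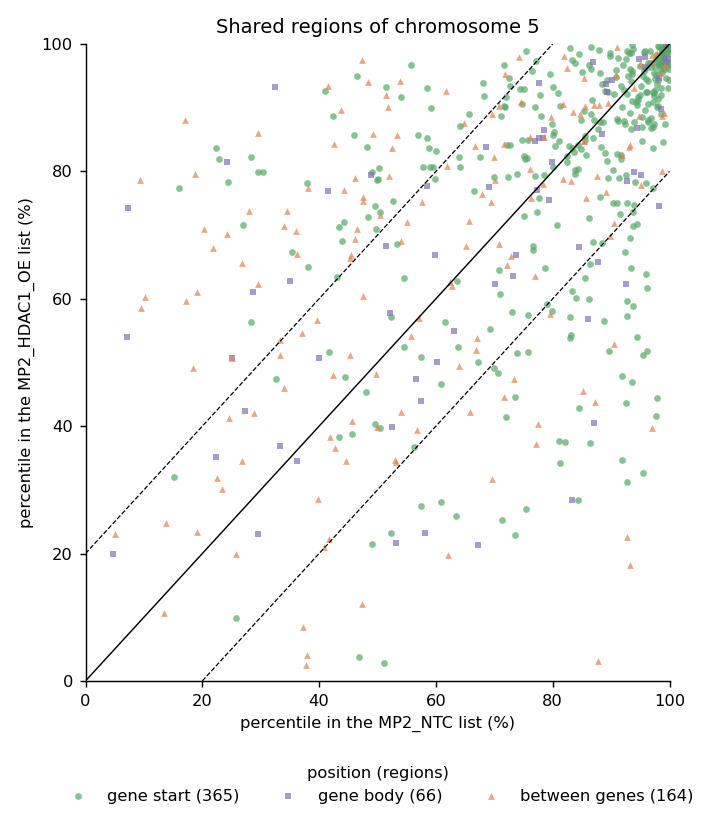
Percentile of the strongest peak of each of the 595 shared chromosome 5 regions in MP2_NTC (x axis, %) and MP2_HDAC1_OE (y axis, %), by position at a gene start, in a gene body or between genes. The solid line marks equal ranks and the dashed lines a shift of 20 points, past which lie 107 regions toward MP2_HDAC1_OE and 84 toward MP2_NTC.

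The balance differed by position. The 164 shared regions between genes had a median shift of 5.75 points, with 47 past 20 points toward MP2_HDAC1_OE and 20 toward MP2_NTC. The 365 at gene starts had a median of -0.886 points with 51 and 55, and the 66 in gene bodies 0.391 points with 9 and 9. On the other chromosomes, regions between genes had a median of 2.71 points and those at gene starts 1.35. The 3 gene-poor stretches of chromosome 5 described below held 82 shared regions, almost all between genes, with a median shift of 8.15 points. The 5 strongest shared regions were picked for the highest mean percentile over both lists, so their ranks could differ little. *LMAN2*, a cargo receptor of the secretory pathway, stood at percentiles 99.88 and 99.98, *G3BP1*, a stress granule protein, at 99.8 and 99.7, *MATR3*, a nuclear matrix protein, at 99.4 and 99.9, the transporter *SLC22A4* at 99.4 and 99.8 and *KGD4*, a part of the alpha-ketoglutarate dehydrogenase complex, at 99.6 in both. The highest signal of chromosome 5 was 152 in MP2_HDAC1_OE and 219 in MP2_NTC, and the scaling between the lists is not known.

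The largest shifts toward MP2_NTC at gene starts were at *SFXN1*, a mitochondrial serine carrier, from percentile 95.4 in MP2_NTC to 32.6 in MP2_HDAC1_OE, at *CEP72*, a centrosomal protein (92.8 and 31.3), at *LMNB1*, which codes for lamin B1 (91.8 and 34.7), at *KIF2A*, a microtubule-depolymerising kinesin (84.4 and 28.3), and at *BDP1*, a subunit of the RNA polymerase III factor TFIIIB (97.6 and 41.6). At *SFXN1*, *CEP72*, *KIF2A* and *BDP1* the strongest peaks of the gene start moved as the region did. *LMNB1* had another shared region at its start, chr5:126777190-126778205, and its strongest peaks were at 97.2 in MP2_NTC and 77.4 in MP2_HDAC1_OE. *BRD9*, a bromodomain subunit of SWI/SNF complexes, and *TRIP13*, an ATPase of the spindle checkpoint, share a start with 87.7 in MP2_NTC and 28.2 in MP2_HDAC1_OE, on peaks that lay side by side without overlap. *ARL15* (92.5 and 43.6) and *ANXA6*, an annexin (71.4 and 25.3), moved the same way. A region in *STK10* fell from 83.2 to 28.4, and a region 9.1 kb from *TRIM7* from 97.0 to 39.7.

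Toward MP2_HDAC1_OE, the largest shift at a gene start was at *PLK2*, a polo-like kinase, for a region at chr5:58461704-58463205 with percentile 16.0 in MP2_NTC and 77.4 in MP2_HDAC1_OE. The strongest peaks at *PLK2* stood at 98.7 and 98.9 in another region. *DMXL1* had a region at 22.4 in MP2_NTC and 83.7 in MP2_HDAC1_OE, and was not among the 10 largest gains by the strongest peak of a start. By the strongest peak of the gene start, the largest gains were at *SLC25A46*, a mitochondrial outer membrane protein (41.0 and 92.6), *WDR55* (42.3 and 93.3, on separate regions), *SNX18*, a sorting nexin (29.5 and 79.9), *ARSB*, a lysosomal sulfatase (30.4 and 79.9), *P4HA2*, and *CDK7*, the kinase of TFIIH (42.4 and 88.7). Inside genes, *IQGAP2* (7.24 and 74.3) and *DNAH5*, an axonemal dynein (32.4 and 93.2), had regions that ranked higher in MP2_HDAC1_OE.

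The widest contrasts lay in gene-poor stretches. A stretch here runs between neighbouring protein-coding genes, and those shown were picked after their counts were seen. Of 2475 stretches of all chromosomes that held a region, the one from *ACTBL2* to *PLK2* held the most, 82 regions within 971 kb. The stretch after *NUDT12*, toward *EFNA5*, was the fourth with 65 regions, all between chr5:103581010 and chr5:104516433, and that from *SPRY4* to *FGF1* tied for the eighth with 41 regions in 267 kb. Together they held 188 regions, and 66 were unique to MP2_HDAC1_OE (35.1%, 28.6 to 42.2%), 40 unique to MP2_NTC (21.3%, 16.0 to 27.7%) and 82 shared. Without them, chromosome 5 had 22.6% (20.0 to 25.4%) and 21.9% (19.4 to 24.7%). Of the 188 regions, 187 lay between genes. Regions between genes on the other chromosomes with listed starts had 38.2% unique to MP2_HDAC1_OE and 21.6% unique to MP2_NTC. Both values lay within the intervals of the stretches, so their shares were ordinary for regions between genes. The median shift of their shared regions was 8.15 points, and 27 of 82 (32.9%) were past 20 points toward MP2_HDAC1_OE, where 15.6% of the shared regions of the rest of the chromosome were. The low share of MP2_HDAC1_OE-only regions on chromosome 5 was thus lower still outside these stretches. Among the 10 stretches with most regions, those of other chromosomes also held more regions unique to MP2_HDAC1_OE than to MP2_NTC. The largest of these were *ZNF217* to *BCAS1* (33 and 15 of 76 regions) and *KRR1* to *PHLDA1* (29 and 19 of 67), so this was not particular to chromosome 5.

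**Figure D4:**
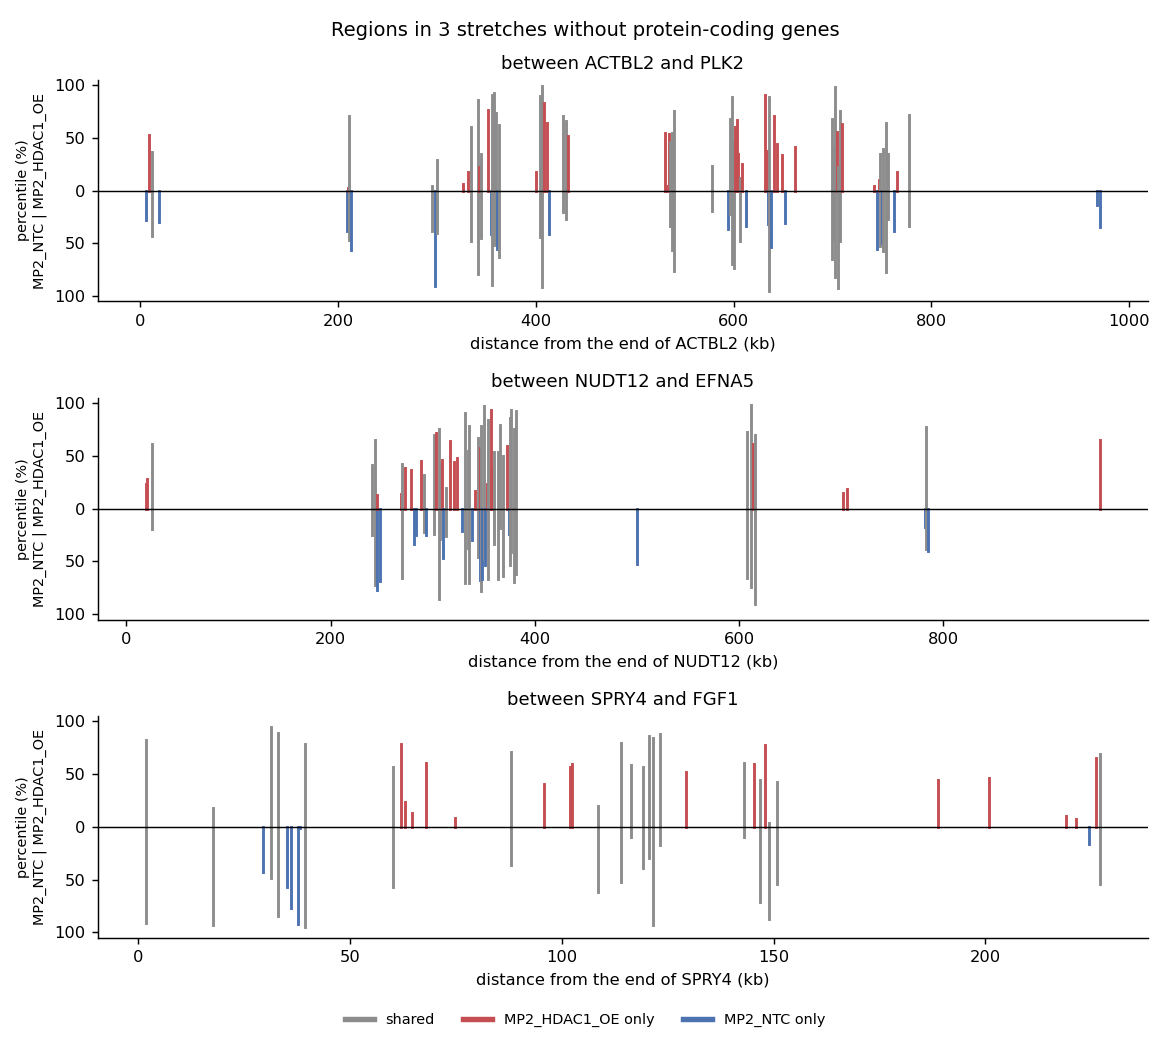
Regions in 3 stretches of chromosome 5 without protein-coding genes, by distance from the end of the gene on their left (x axis, kb). Bars rise to the percentile of the region's strongest peak in MP2_HDAC1_OE and descend to that in MP2_NTC (y axis, %), in grey for shared regions, red for MP2_HDAC1_OE only and blue for MP2_NTC only. The stretches hold 82, 65 and 41 regions, in clusters with empty spans between them.

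Between *ACTBL2* and *PLK2*, 28 regions were unique to MP2_HDAC1_OE, 19 to MP2_NTC and 35 were shared, with a median shift of 3.13 points. In the next stretch toward the short arm, from *GPBP1* to *ACTBL2*, 12 of 18 regions were unique to MP2_HDAC1_OE and 2 to MP2_NTC. The strongest region between *ACTBL2* and *PLK2*, chr5:57888200-57889704, lay 405.4 kb from *ACTBL2* at percentiles 99.5 in MP2_HDAC1_OE and 90.9 in MP2_NTC. At chr5:57839736-57841084 the percentiles were 92.0 and 51.4. Close neighbours moved in opposite directions, since chr5:58185221-58186040 stood at 98.1 and 81.9 and chr5:58187526-58188280 at 22.6 and 92.7. Of the 82 regions, 18 met a lncRNA gene such as *LINC02101* (6 regions) or *LINC02225* (3 regions).

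After *NUDT12*, the 28 shared regions had a median shift of 17.0 points, with 11 past 20 points toward MP2_HDAC1_OE and 2 toward MP2_NTC. The lncRNA gene *LOC105379107* (chr5:103607232-103946321) met 51 of the 65 regions, 16 unique to MP2_HDAC1_OE, 12 unique to MP2_NTC and 23 shared. Within it, chr5:103911945-103913154 stood at percentile 97.6 in MP2_HDAC1_OE and 47.3 in MP2_NTC, chr5:103938994-103939577 at 93.4 and 41.5 and chr5:103927654-103929166 at 79.6 and 18.8. The strongest MP2_NTC peak of the stretch, at chr5:104178295-104179139, went the other way, with 89.8 in MP2_NTC and 69.8 in MP2_HDAC1_OE.

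Between *SPRY4*, an inhibitor of receptor tyrosine kinase signalling, and the growth factor gene *FGF1*, 16 regions were unique to MP2_HDAC1_OE, 6 to MP2_NTC and 19 shared. *SPRY4-AS1*, the antisense lncRNA gene, met 28 of the 41. This stretch held both extremes of the chromosome. The region chr5:142447357-142449119 went from percentile 17.1 in MP2_NTC to 88.0 in MP2_HDAC1_OE, and chr5:142473782-142474296 from 87.7 to 3.16. Both had a strong neighbour. Beside the former, chr5:142446274-142446924 stood at 93.2 in MP2_NTC and 84.1 in MP2_HDAC1_OE. The latter, centred 149.0 kb from *SPRY4*, had a region unique to MP2_HDAC1_OE at percentile 77.3 centred at 147.9 kb. Near *SPRY4*, chr5:142355891-142356811 stood at 94.1 in MP2_HDAC1_OE and 48.4 in MP2_NTC, and chr5:142342096-142343124 at 18.1 and 93.3. The start of *SPRY4* itself had peaks at 96.7 and 91.6, and the start of *FGF1* had none.

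Gene lists of chromosome 5 showed where such differences met known groups. A gene was scored by the peaks at its starts, or at either end where no start was listed. All 23 housekeeping genes had peaks of both lists, with a median shift of -2.11 points. Past 20 points, 0 went toward MP2_HDAC1_OE and 5 toward MP2_NTC. The 5 included the mitochondrial channel *VDAC1* and *UQCRQ* of complex III (92.3 in MP2_NTC and 67.3 in MP2_HDAC1_OE). They also included *TCOF1*, a factor of ribosome synthesis (58.1 and 23.3), and *HMGCS1* of the mevalonate pathway (83.3 and 61.2). Of the 23 genes, all but *TCOF1* stood at percentile 83.3 or higher in MP2_NTC, so they could not rise by 20 points. Of 351 genes of the chromosome with peaks of both lists, the median was -0.627 points, with 41 up (11.7%) and 44 down (12.5%). Over all chromosomes, 6231 such genes had a median of 1.15 points, with 16.3% up and 12.5% down. The share down on chromosome 5 was thus that of all chromosomes, and the share up was smaller. Of 24 cell cycle and DNA repair genes, 20 had both lists, 1 (*POLK*) MP2_HDAC1_OE alone and 3 no peak. *CDK7* was past 20 points toward MP2_HDAC1_OE, and *CCNB1*, the mitotic cyclin (73.8 in MP2_NTC and 51.5 in MP2_HDAC1_OE), *SKP2*, which targets CDK inhibitors for destruction (57.5 and 27.5), *KIF2A* and *TRIP13* toward MP2_NTC.

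**Figure D5:**
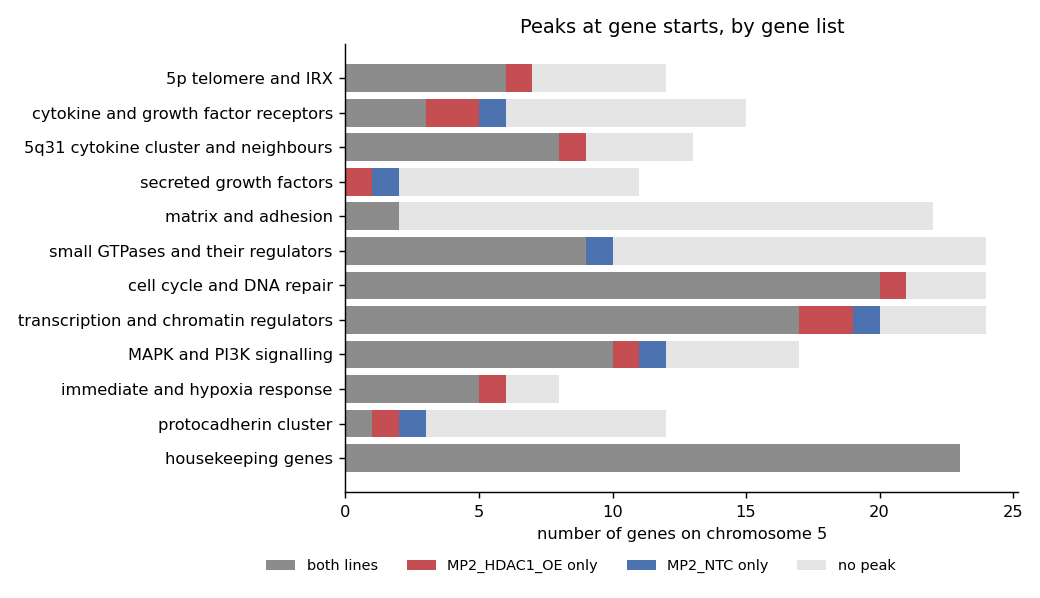
Number of genes on chromosome 5 (x axis) with H3K27ac peaks of both lines, of MP2_HDAC1_OE only, of MP2_NTC only or with no peak at their starts, for 12 gene lists (y axis). All 23 housekeeping genes have peaks of both lines, and 20 of 22 matrix and adhesion genes have none.

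Of 24 transcription and chromatin regulators, 17 had both lists, *MACROH2A1* and the homeobox gene *MSX2* MP2_HDAC1_OE alone, *TCF7* MP2_NTC alone and 4 no peak, with a median shift of -0.614. *HDAC3*, a class I deacetylase related to *HDAC1*, was past 20 points toward MP2_HDAC1_OE (63.4, and 43.0 in MP2_NTC). The glucocorticoid receptor gene *NR3C1* stood at 99.4 and 99.3 and the H3K36 methyltransferase gene *NSD1* at 98.2 and 98.6. *BRD9*, *PITX1* and *IRF1* were past 20 points toward MP2_NTC. In the list of cytokine genes near 130 Mb and their neighbours, 8 of 13 had both lists, 1 past 20 points up (*P4HA2*) and 2 down (*IRF1* and *SEPTIN8*), and the cytokine genes *IL3*, *CSF2*, *IL4* and *IL13* had no peak. *IL5*, without a listed start, was counted under both lists on the same peaks as the start of its neighbour *RAD50*, a DNA repair gene, so the 8 are not 8 separate starts. Of 24 small GTPases and their regulators, 9 had both lists, 1 MP2_NTC alone and 14 none, and *RAPGEF6*, *ARL15* and *RANBP17* were past 20 points toward MP2_NTC. In MAPK and PI3K signalling, 10 of 17 had both lists, *MAP3K1* MP2_HDAC1_OE alone and *PIK3R1* MP2_NTC alone. *CSNK1A1*, a casein kinase, was past 20 points toward MP2_NTC, and the MAPK phosphatase gene *DUSP1* stood at 91.3 in MP2_HDAC1_OE and 94.6 in MP2_NTC. Of 12 genes near the short-arm end, 6 had both lists, with a median shift of -20.5. Past 20 points toward MP2_NTC were 3, *CLPTM1L* and the pair *BRD9* and *TRIP13* on their common start. *SDHA* (3.58 points), *TRIO* (7.62) and *SLC12A7* (15.3) shifted the other way. The common start enters the median as 2 genes, and counted once it would leave the 3.58 of *SDHA* as the median.

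Of 15 cytokine and growth factor receptors, 3 had both lists, among them *IL6ST*, the signal-transducing subunit of the IL-6 family (99.8 in MP2_HDAC1_OE and 93.5 in MP2_NTC), 2 MP2_HDAC1_OE alone, 1 MP2_NTC alone and 9 none. Of 11 secreted growth factors, *HBEGF* had MP2_HDAC1_OE alone, *EFNA5* MP2_NTC alone and 9 no peak. Of 22 matrix and adhesion genes, *CTNNA1* (80.8 in MP2_NTC and 71.5 in MP2_HDAC1_OE) and *THBS4*, a thrombospondin (84.4 and 98.4), had both lists and 20 had no peak. Of 8 immediate and hypoxia response genes, 5 had both lists, with *P4HA2* past 20 points toward MP2_HDAC1_OE. Of 12 protocadherin genes, *PCDHGC3* had both lists, *PCDHGC5* and *PCDHAC2* each had a single line and 9 had no peak. These lists were written with earlier results of these data known, and their counts are read beside those of all genes of the chromosome.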

How the data were processed

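H3K27ac ChIP-seq (75 bp single-end reads, antibody Abcam ab4729) was available for 8 samples in 4 groups of 2, H3K27ac and no-antibody control for each line. Per the labels and the study's methods, the authors processed the reads with the ENCODE ChIP-seq pipeline and deposited 1 optimal IDR peak list per line, pooled over both samples. The submitters' processing notes name hg38, BWA 0.7.12 and Picard 1.88, and the peak caller is not given in the sources used here. The deposited signal values of the peaks are enrichment values on a scale set within each list, so they were ranked only within a list. The lists hold no read counts, and depth is unknown.

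Peaks of both lists were merged where they shared at least 1 bp. A region's percentile is that of its strongest peak in a list. Intervals are 95% Wilson intervals and cover counting error alone, and that of the median shift is binomial. No test was run, since each line has 1 list. Gene starts came from RefSeq (GRCh38.p14), with 789 of 903 protein-coding genes of chromosome 5 matched to 1087 starts. No starts were used for 1 of 23 chromosomes. The named regions are the 10 strongest unique regions of each line, the 10 largest shifts in each direction and the 5 strongest shared regions. Other regions and genes named, the gene-poor stretches, the lncRNA genes and the genes with a peak in 1 list were chosen after their values were seen. The members and the 12 gene lists were chosen with earlier results of these data known. The merging was tested on simulated data. The scripts used matplotlib 3.10.9, scipy 1.17.1, pandas 2.3.3 and numpy 2.4.6 under Python 3.11.15. Alternatives changed the overlap rule, the peaks kept, the bin borders and the measure of rank. Results for a few genes are not reported here.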

Additional observations from a re-analysis of the deposited data

How the results depend on the processing

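Of 32 alternatives, 20 left a value within its counting interval or, for counts, within 1.5 times, and 12 moved it further. A turn of direction was scored only for the difference between 130 and 140 Mb, where none was seen. Comparing single peaks by 1 bp in place of merged regions gave 14.5% unique to MP2_HDAC1_OE, 11.8% unique to MP2_NTC and 73.8% shared, and merging across gaps up to 500 bp gave 22.0%, 19.0% and 59.0%. The difference of 16 regions between 130 and 140 Mb became 8 when single peaks had to share 50% of both lengths, 8 with the strongest 75% of each list, 8 with the borders moved toward the short arm and 7 with them moved the other way, so its size depends on the borders. The median shift of shared regions became -1.70 points when ranked among shared regions and -0.95 with equal numbers of peaks, where that of all chromosomes was -0.022. No paired analysis was possible because the samples were pooled before peaks were listed, which also kept any sample from being left out. Without depth and replicate lists, weak peaks of 1 list cannot be told apart from peaks just under the other list's limit.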

Other observations

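The bin from 25 to 30 Mb had 10 shared regions with a median shift of 26.98 points, 7 of them past 20 points toward MP2_HDAC1_OE and 2 toward MP2_NTC. Of its 17 regions, 4 were unique to MP2_HDAC1_OE and 3 to MP2_NTC.

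Of 77 microRNA genes on chromosome 5, 10 had a region within 1 kb. *MIR584* had 2 weak regions unique to MP2_HDAC1_OE (percentiles 18.2 and 36.5), and *MIR6075* had 1 unique to MP2_NTC (31.1). The other 8 had shared regions, among them *MIR1229* (50.6 in MP2_HDAC1_OE and 25.05 in MP2_NTC), *MIR378A* (50.1 and 60.2) and *MIR3912* (84.7 and 98.8).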
